A study of Mus musculus with 6 samples.

Results

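The unfolded protein response of the endoplasmic reticulum (ER) was examined through 10 genes, its 3 sensors with transcription factors and targets placed downstream of them. They were chosen by name, as the probes whose only gene symbol was one of Ern1, Xbp1, Dnajb9, Atf6, Hspa5, Hsp90b1, Herpud1, Eif2ak3, Atf4 and Ddit3. Of these, 9 had such a probe, 1 each, among 14860 genes with a single-symbol probe. Atf6 itself was not analysed here, so the ATF6 arm was read through its targets. RNA came from the hippocampus of 3 transgenic mice, labelled HGPS, and 3 wildtype mice, all aged 63 weeks, with 1 Affymetrix array per animal. HGPS commonly stands for Hutchinson-Gilford progeria syndrome, an early-ageing disease of lamin A. The sources used here do not give the transgene's promoter, the cells that carry it, the line's origin or the sex of the animals. Expression of Y-linked genes, given below, was unequal between the groups. Values are log2 expression as deposited by the authors, and each difference is transgenic minus wildtype.

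When unfolded proteins build up in the ER, the sensors act in parallel. IRE1, encoded by Ern1, cuts Xbp1 mRNA so that it encodes an active transcription factor. ATF6 travels to the Golgi, where it is cleaved to release a transcription factor that induces chaperone genes. PERK, encoded by Eif2ak3, phosphorylates eIF2, which slows translation in general while favouring that of Atf4 mRNA. ATF4 in turn induces Ddit3, which encodes the pro-apoptotic factor CHOP. Much of this signalling takes place through splicing, cleavage and translation, and 1 summary value per gene reports none of these steps.

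None of the 9 genes passed a false discovery rate of 10% in limma over the 14996 probes tested, where 7 probes (0.0467%) did. Xbp1 had the largest difference of the 9, at 0.31 ± 0.08 log2 units (limma SE, n = 3 per group), a level 1.24 times that of wildtype. Hspa5, Dnajb9, Ern1, Eif2ak3, Herpud1 and Atf4 had differences between 0.08 and 0.17, and Hsp90b1 and Ddit3 had differences of -0.03 and -0.04. The median over the 9 genes was 0.11 and 7 of 9 lay above 0, against 49.9% of all probes tested. In 3 genes, Xbp1, Hspa5 and Eif2ak3, every transgenic animal lay above every wildtype animal, as in 9.14% of all probes, and no gene had the opposite arrangement, found in 8.55%. Xbp1 and Hspa5 had an unadjusted p under 0.05 with a higher level, as did 5.81% of all probes, and none had one with a lower level, against 4.8% of all probes.

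The recognition elements of this response can be read in the promoters of the ER chaperone genes. All 9 measured genes had a window of 300 bases in RefSeq's GRCm38.p6 promoters, 250 before and 50 after the start site, and 5 motifs were searched on both strands. These were the ER stress response element (ERSE, CCAAT and CCACG spaced by 9 bases), ERSE-II (ATTGG and CCACG spaced by 1 base), the unfolded protein response element core TGACGTGG, the cAMP-response-like core TGACGT, which lies within TGACGTGG, and the amino acid response element TTGCATCA. ERSE was present in Hspa5 and, on each strand, in Hsp90b1, against 0.119% of 32851 promoter windows. Herpud1 held ERSE-II, found in 0.0365% of windows, and the amino acid response element, found in 0.895%. Hspa5 also held TGACGT, found in 7.51% of windows, while TGACGTGG, found in 0.676%, was in none of the 9. The 250 bases before the start site of the 3 genes with a match are shown because they are the ATF6 arm's chaperone and degradation genes and did not share 1 pattern of expression. Capitals mark the matched letters, and each sequence runs 5′ to 3′ on the gene's strand.
Hspa5: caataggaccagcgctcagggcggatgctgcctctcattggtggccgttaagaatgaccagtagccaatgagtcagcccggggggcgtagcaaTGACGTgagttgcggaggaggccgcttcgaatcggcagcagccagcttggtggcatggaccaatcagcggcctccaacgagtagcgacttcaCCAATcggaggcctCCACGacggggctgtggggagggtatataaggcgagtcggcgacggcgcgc
Hsp90b1: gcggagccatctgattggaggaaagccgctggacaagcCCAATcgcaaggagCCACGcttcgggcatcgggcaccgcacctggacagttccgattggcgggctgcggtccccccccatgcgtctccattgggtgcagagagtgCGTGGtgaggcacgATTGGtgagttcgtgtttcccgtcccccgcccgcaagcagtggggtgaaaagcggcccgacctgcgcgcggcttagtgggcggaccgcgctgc
Herpud1: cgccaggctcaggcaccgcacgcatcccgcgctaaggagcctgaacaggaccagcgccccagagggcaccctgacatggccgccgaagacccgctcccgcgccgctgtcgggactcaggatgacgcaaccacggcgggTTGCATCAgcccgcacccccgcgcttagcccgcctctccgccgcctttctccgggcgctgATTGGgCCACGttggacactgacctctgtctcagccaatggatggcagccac

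In GRCm38.p6 these sequences lie at chr2:34771840-34772089 on the plus strand for Hspa5, at chr10:86705445-86705694 on the minus strand for Hsp90b1 and at chr8:94386179-94386428 on the plus strand for Herpud1. Counted from the start site, the ERSE of Hspa5 spans -65 to -47. Those of Hsp90b1 span -212 to -194 and, on the opposite strand, -107 to -89. In Herpud1, ERSE-II spans -52 to -42 and the amino acid response element -112 to -105. None of the 5 motifs was found in the windows of the other 6 genes, which says only that these letters are not there. A match describes the sequence and not a bound factor.

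In the IRE1 arm, all 3 genes had positive differences. Ern1, which encodes the sensor and RNA-cutting enzyme IRE1, had log2 values of 8.25, 8.11 and 8.19 in the transgenic animals, against 8.01, 7.94 and 8.12 in the wildtype animals. The groups overlapped only through transgenic replicate 2 and wildtype replicate 3. The difference was 0.16 ± 0.07 (95% interval -0.01 to 0.33, limma adjusted p = 0.489).

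Xbp1, the transcription factor gene whose mRNA IRE1 splices, had log2 values of 10.37, 10.34 and 10.58 in the transgenic animals, against 10.15, 10.18 and 10.04 in the wildtype animals. The groups did not overlap, and the highest and lowest arrays were transgenic replicate 3 and wildtype replicate 3. The 95% interval of the difference was 0.11 to 0.50, or 1.08 to 1.42 times wildtype (limma unadjusted p = 0.00755, adjusted p = 0.431). It therefore excluded a 2-fold difference at the level of the whole gene, as did the intervals of 14742 of the 14996 probes tested. With transgenic replicate 3 left out the difference was 0.23, the lowest of all alternatives.

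Dnajb9, which encodes the ER J-domain co-chaperone ERdj4 and is induced by spliced XBP1, had log2 values of 11.57, 11.84 and 12.02 in the transgenic animals, against 11.64, 11.77 and 11.51 in the wildtype animals. It had the widest spread of the 9 genes among transgenic animals, 0.23 (SD, n = 3), and transgenic replicate 1 lay below 2 of the 3 wildtype animals. The difference was 0.17 ± 0.12 (95% interval -0.12 to 0.46, limma adjusted p = 0.63). It was 0.06 without transgenic replicate 3 and 0.29 without transgenic replicate 1.

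**Figure D1:**
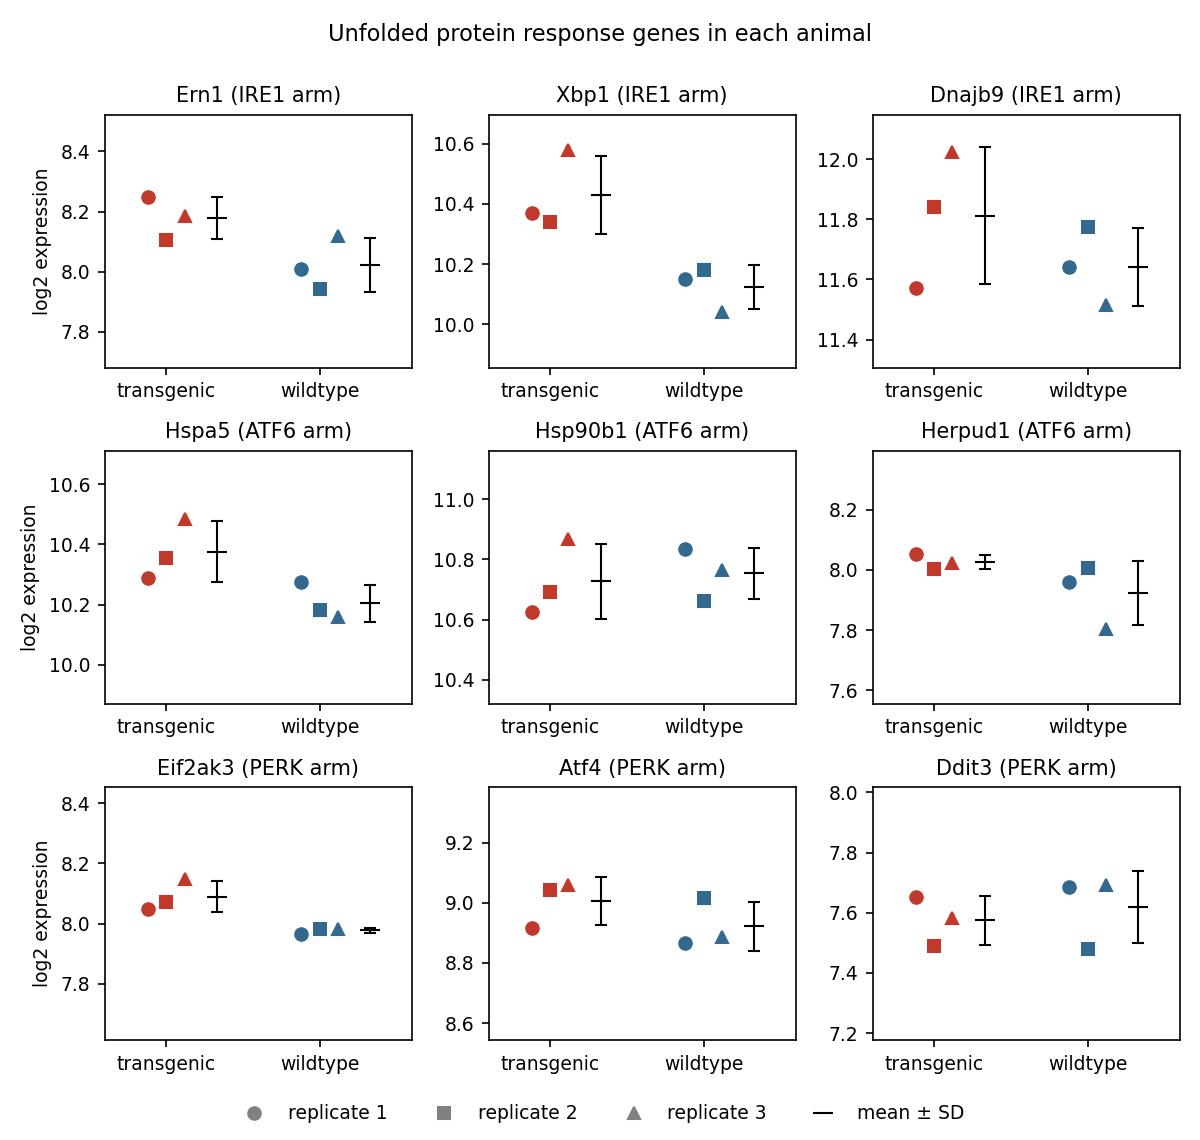
Log2 expression of the 9 measured genes in each transgenic (red) and wildtype (blue) animal, with the mean ± SD of each group in black. Every panel spans the same range of log2 units around its gene's mean, and the groups are apart in Xbp1, Hspa5 and Eif2ak3 but overlap in the other 6 genes.

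The targets of the ATF6 arm did not share 1 pattern. Hspa5, which encodes BiP, the main ER chaperone and the protein that holds the sensors inactive, had log2 values of 10.29, 10.36 and 10.49 in the transgenic animals, against 10.27, 10.18 and 10.16 in the wildtype animals. The groups did not overlap, but transgenic replicate 1 lay just above wildtype replicate 1. The difference was 0.17 ± 0.07, or 1.13 times wildtype (95% log2 interval 0.00 to 0.34, limma unadjusted p = 0.04997, adjusted p = 0.47). The unadjusted p exceeded 0.05 when any 1 of 4 of the 6 arrays was left out, reaching 0.143 without transgenic replicate 3.

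Hsp90b1, which encodes the ER chaperone GRP94 and carried ERSE on both strands, had log2 values of 10.62, 10.69 and 10.87 in the transgenic animals, against 10.83, 10.66 and 10.76 in the wildtype animals. Transgenic animals were the highest and the lowest of the 6, and the difference was -0.03 ± 0.08 (95% interval -0.22 to 0.17, limma adjusted p = 0.923). Its sign turned to 0.03 without transgenic replicate 1 and to 0.01 without wildtype replicate 1. Hspa5 and Hsp90b1, both with ERSE in the window, thus differed in whether their groups overlapped, though the gap between their differences was not tested.

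Herpud1, which encodes an ER membrane protein of the degradation pathway for misfolded proteins, had log2 values of 8.05, 8.003 and 8.02 in the transgenic animals, against 7.96, 8.01 and 7.80 in the wildtype animals. The transgenic animals were close together, and wildtype replicate 2 lay among them. The difference was 0.10 ± 0.07 (95% interval -0.06 to 0.27, limma adjusted p = 0.608), and it was 0.04 without wildtype replicate 3.

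In the PERK arm, the estimated differences ran from 0.11 for the sensor to -0.04 for the target, with a 95% interval that crossed 0 in each gene. Eif2ak3 had log2 values of 8.05, 8.07 and 8.15 in the transgenic animals, against 7.97, 7.98 and 7.98 in the wildtype animals. The groups did not overlap, with a spread among wildtype animals of 0.01 (SD, n = 3). The difference of 0.11 ± 0.06 was nevertheless a level of only 1.08 times wildtype (95% interval 0.98 to 1.19, limma adjusted p = 0.521).

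Atf4, the transcription factor gene of this arm, had log2 values of 8.91, 9.04 and 9.06 in the transgenic animals, against 8.87, 9.02 and 8.89 in the wildtype animals. Wildtype replicate 2 lay above transgenic replicate 1, and the difference was 0.08 ± 0.07 (95% interval -0.09 to 0.25, limma adjusted p = 0.681). Ddit3 had log2 values of 7.65, 7.49 and 7.58 in the transgenic animals, against 7.68, 7.48 and 7.69 in the wildtype animals. The 2 highest arrays were wildtype, as was the lowest, and the difference was -0.04 ± 0.08 (95% interval -0.24 to 0.15, limma adjusted p = 0.858). For both genes the interval excluded a 2-fold difference in either direction, as it did for 14742 of the 14996 probes tested.

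**Figure D2:**
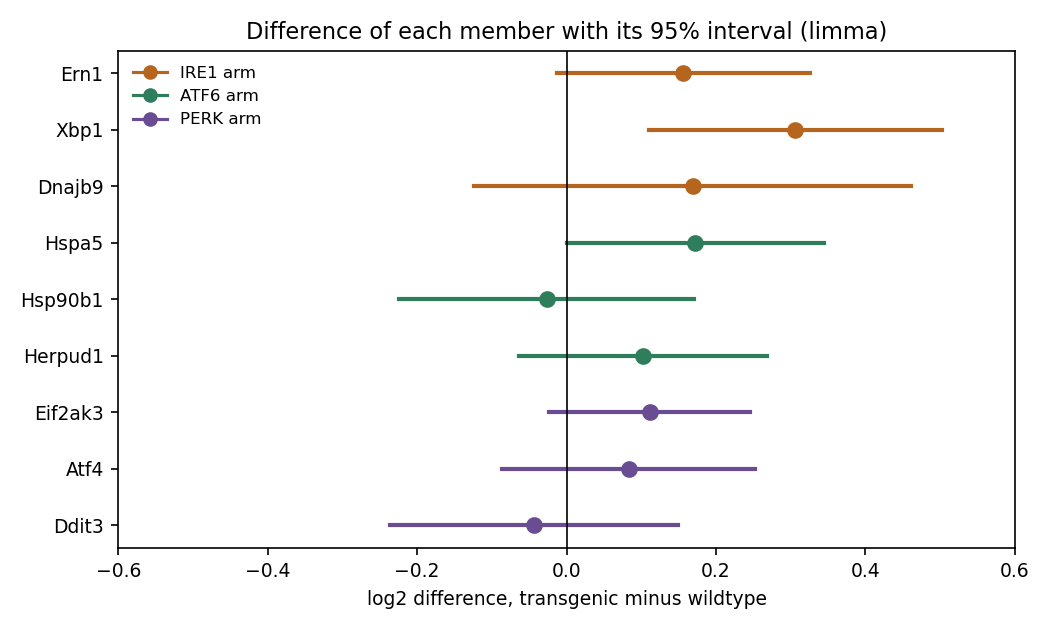
Log2 difference, transgenic minus wildtype, of each measured gene (points) with its 95% interval from limma (lines), coloured by arm. The interval of Xbp1, 0.11 to 0.50, lies above 0, that of Hspa5 begins at 0, and those of the other 7 genes cross 0.

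Set side by side, the IRE1 arm had the largest mean difference of the 3 arms. Averaged over its 3 measured genes, with each gene centred over the 6 arrays, the IRE1 arm stood at 0.03, 0.06 and 0.23 in the transgenic animals, against -0.10, -0.07 and -0.14 in the wildtype animals. The targets of ATF6 stood at -0.01, 0.01 and 0.12 in the transgenic animals, against 0.02, -0.05 and -0.09 in the wildtype animals. The PERK arm stood at 0.01, 0.00 and 0.07 in the transgenic animals, against -0.03, -0.04 and -0.01 in the wildtype animals. The groups were apart in the averages of the IRE1 and PERK arms and overlapped in the targets of ATF6. In the PERK arm the gap was narrow, from -0.011 in wildtype replicate 3 to 0.003 in transgenic replicate 2. Only Xbp1 in the IRE1 arm and Eif2ak3 in the PERK arm had groups apart singly, as had 9.14% of all probes. No such share was computed for averages of 3 genes. The mean differences were 0.21 for IRE1, 0.08 for ATF6 targets and 0.05 for PERK. These averages are descriptions without a test.

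Pairs of genes from the IRE1 and PERK arms were then compared within each array, which asks whether 1 arm differed more than the other. For the sensors, Ern1 minus Eif2ak3, relative to its mean over the arrays, was 0.02 ± 0.09 in the transgenic animals and -0.02 ± 0.09 in the wildtype animals (SD, n = 3 each). The difference of 0.04 did not exceed this spread (two-sided exact permutation p = 0.70, adjusted p = 0.70 over the 2 pairs). For the transcription factors, Xbp1 minus Atf4 was 0.11 ± 0.11 in the transgenic animals and -0.11 ± 0.07 in the wildtype animals (SD, n = 3 each). All 3 transgenic animals lay above all 3 wildtype animals, the closest at -0.01 in transgenic replicate 2 and -0.03 in wildtype replicate 1. The difference of 0.22 had a two-sided exact permutation p of 0.1, the smallest that 3 against 3 can give, and an adjusted p of 0.2. The comparisons with Atf6 could not be made here.

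Much of the variation was carried by single animals. Transgenic replicate 3 was the highest array in 6 of the 9 genes, and wildtype replicate 3 was the lowest in 4. Transgenic replicate 1 was the highest in 2 genes, Ern1 and Herpud1, and the lowest in Hsp90b1. The same shares over all probes were not computed, so these counts do not set the 9 genes apart from others on these arrays. Without transgenic replicate 3 the median difference of the 9 genes was 0.08, with 7 of them still above 0.

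Likeness of profile was measured as the root mean square difference of values centred on their mean over the 6 arrays, where smaller is more alike. Among the 9 genes, Eif2ak3 and Atf4 were each other's nearest (0.06). The nearest to Xbp1 was Hspa5 (0.09), and the nearest to Hspa5, Ern1, Herpud1 and Hsp90b1 was Eif2ak3, the gene with the narrowest range. Only Eif2ak3 and Atf4 had their nearest neighbour within their own arm, so by this measure, which also depends on range, the profiles did not sort by arm. Ranked among all genes, the nearest member stood between 164th, for Xbp1, and 3828th, for Hsp90b1. Many genes outside the set were thus closer. Over all genes, those nearest to Xbp1, the gene with the widest range, were Prkab2 (0.02), Sik1 (0.03), V1ra8 (0.04), Mis12 (0.04) and Nudt4 (0.04). Prkab2 encodes a regulatory subunit of AMP-activated kinase and Sik1 a salt-inducible kinase, with differences of 0.32 ± 0.08 and 0.30 ± 0.07 and a limma adjusted p of 0.431 each. With 6 arrays and this many genes, close profiles arise readily.

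Beyond the 9 genes, 6 lists of the wider pathway had 76 measured genes of 92 listed, and none of these passed a false discovery rate of 10%. Among targets and partners of IRE1 and XBP1, 10 of 14 were higher, with a median of 0.06, and 1 had an unadjusted p under 0.05. The median was 0.02 without transgenic replicate 3, with 9 of 14 higher, and 0.02, with 8 of 14 higher, once Y-linked expression was a covariate. That gene was Sdf2l1, an ER chaperone partner, with log2 values of 9.31, 9.19 and 9.58 in the transgenic animals, against 9.15, 8.79 and 8.89 in the wildtype animals. The groups did not overlap, and its difference of 0.41 ± 0.13 was larger than that of Xbp1 (limma adjusted p = 0.431). Edem1, which targets misfolded glycoproteins for degradation, differed by 0.12 ± 0.06 with groups apart, and Traf2, an adaptor that IRE1 recruits, by 0.19 ± 0.12 with groups overlapping. The translocon and signal sequence receptor genes Sec61b, Sec61a1, Ssr1 and Ssr3 had differences between 0.03 and 0.08. The 4 lower genes, Fkbp11, Sec24d, Srp19 and Dnajb11, had differences of -0.07, -0.05, -0.05 and -0.04, each with overlapping groups.

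Of 13 genes of ATF6 processing and ER chaperones, 8 were higher, with a median of 0.03, and none had an unadjusted p under 0.05. Creld2, an ER stress-induced disulfide-handling protein gene, differed by 0.19 ± 0.10 and the disulfide isomerase gene Pdia4 by 0.22 ± 0.13, while the ER oxidase gene Ero1b differed by -0.12 ± 0.10. In all 3 the groups overlapped. The chaperone genes Calr and Hyou1 had differences of 0.03 and -0.01, and Atf6b, the paralogue of Atf6, one of 0.06 ± 0.08.

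Among targets of PERK and ATF4, 14 of 21 were higher, with a median of 0.03, and 5, all higher, had an unadjusted p under 0.05, against 5.81% of all probes. This count was 0 without transgenic replicate 3, 1 without wildtype replicate 2, 2 without transgenic replicate 1, transgenic replicate 2 or wildtype replicate 3, and 0 with the Y-linked covariate. The median was 0.08 without transgenic replicate 1, 0.07 without wildtype replicate 3, and 0.06 with the covariate, with 18 of 21 then higher. Ddit4, which encodes an inhibitor of mTORC1, had log2 values of 8.40, 8.39 and 8.45 in the transgenic animals, against 8.31, 8.19 and 7.99 in the wildtype animals. Its groups were apart, as were those of Slc3a2, the heavy chain of amino acid exchangers, and Ppp1r15a, the stress-induced subunit that directs dephosphorylation of eIF2. The differences of these genes were 0.25 ± 0.09, 0.17 ± 0.06 and 0.19 ± 0.07 in that order, and the lowest limma adjusted p was 0.433. The other 2 with such a p were Cebpg and the cystine exchanger gene Slc7a11. Ddit4 and Ppp1r15a are also known to respond to glucocorticoids and to neuronal or growth factor stimulation, and any part of these here was not tested. The classic stress targets Trib3, Atf3 and Chac1 had differences of -0.06, -0.01 and 0.09, each with overlapping groups.

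Of 8 genes of eIF2 control, 4 were higher, with a median of 0.01. Eif2b2, a subunit of the exchange factor that recharges eIF2, differed by 0.24 ± 0.07 with groups apart, while Eif2s2, the beta subunit of eIF2, differed by -0.10 ± 0.08 and the adaptor gene Nck1 by -0.08 ± 0.07. In ER-associated degradation 10 of 14 were higher, with a median of 0.07. Without transgenic replicate 3 only 7 of 14 were higher, with a median of 0.002, and with the Y-linked covariate also 7 of 14, with a median of 0.03. The groups were apart in 4 of the 14 genes, 2 with transgenic animals above and 2 below, against 9.14% and 8.55% of all probes. Ufd1, a cofactor that helps extract proteins from the ER membrane, and Syvn1, the ubiquitin ligase HRD1, differed by 0.29 ± 0.08 and 0.18 ± 0.07. Erlec1, an ER lectin, and Selenos, a selenoprotein of the retrotranslocation complex, differed by -0.15 ± 0.06 and -0.21 ± 0.10.

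The 6 OASIS-family and tissue-restricted sensor genes had a median of -0.002 with 3 on each side of 0. The largest difference above 0 was that of Creb3l2, at 0.19 ± 0.09, while Creb3l3 and Ern2 had differences of -0.15 ± 0.12 and -0.10 ± 0.06. When single arrays were left out, the median of the ATF6 list ran from 0.0001 to 0.06. That of eIF2 control ran from -0.04 to 0.06, and that of the OASIS family from -0.03 to 0.03. With array weights the ATF6 list had a median of -0.005, with 6 of 13 genes higher. Omission of dim probes removed Creb3l3, Creb3l4 and Ern2 from the OASIS list. The 3 genes left had a median of 0.08, with 2 of them higher. No list was tested against other genes.

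**Figure D3:**
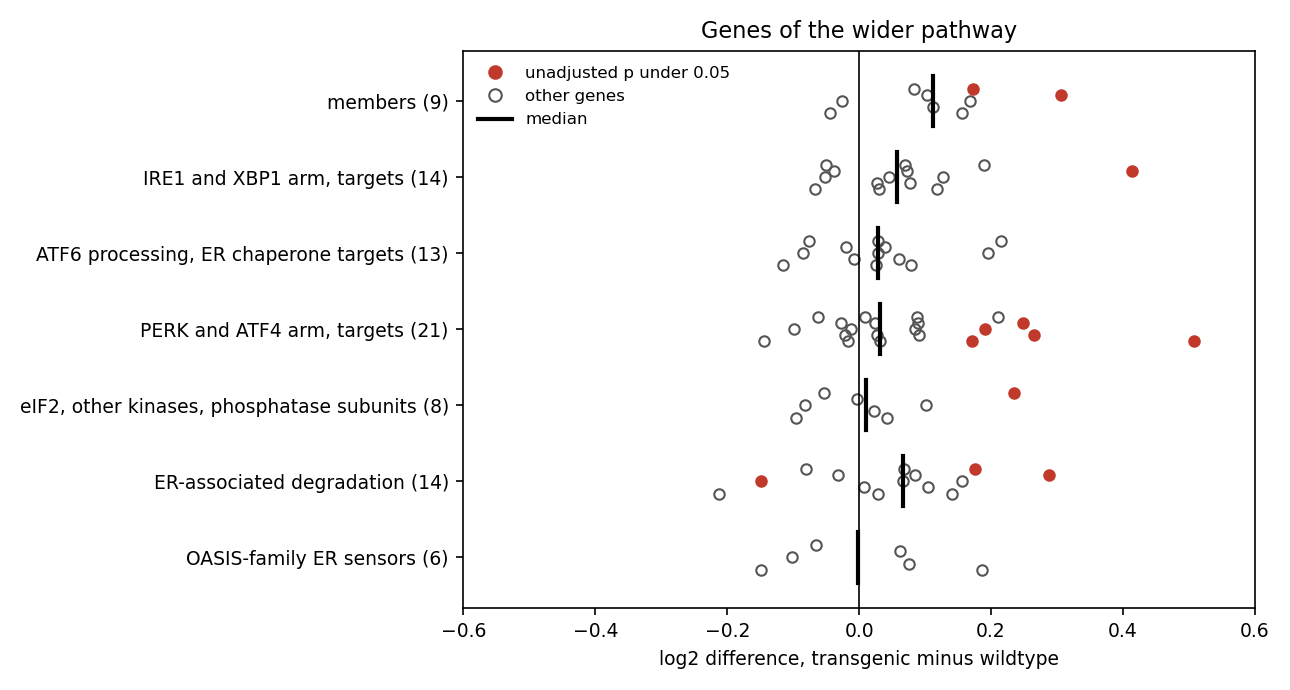
Log2 difference, transgenic minus wildtype, of each gene in the 9 measured members and the 6 wider lists (number of genes in brackets), with the list median as a black bar. Filled red points have an unadjusted limma p under 0.05. Medians run from -0.002 for the list labelled OASIS-family, which also holds the tissue-restricted sensor gene Ern2, to 0.11 for the members.

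Among the neuronal markers, Camk2a stood at 12.29 ± 0.05 in transgenic and 12.36 ± 0.09 in wildtype animals (SD, n = 3 each), and the 10 had a median difference of -0.02. The choroid plexus marker Ttr was also high, at 12.78 ± 0.42 in transgenic and 12.08 ± 0.96 in wildtype animals (SD, n = 3 each). Whether such levels tell hippocampus from other brain tissue was not tested. Of the marker lists of other cell types, those of endothelium, mural cells, meninges, choroid plexus, astrocytes, oligodendrocytes and plasma cells had medians above 0. The plasma cell median was only 0.02, that of microglia was -0.05, and no marker passed the false discovery rate. The genes with the smallest p in their lists were Esam for endothelium, Acta2 for mural cells, Ptgds for meninges and Slc13a4 for choroid plexus, with differences of 0.27 ± 0.06, 1.36 ± 0.45, 1.19 ± 0.36 and 1.29 ± 0.45 in that order. Those of neurons, astrocytes, oligodendrocytes, microglia and plasma cells were Gad1, Gfap, Mobp, Cx3cr1 and Sdc1, with differences of 0.13, 0.26, 0.23, -0.14 and 0.18. All 5 astrocyte and all 5 oligodendrocyte markers were higher, with medians of 0.09 and 0.08, while 5 of 10 neuronal, 2 of 6 microglial and 2 of 4 plasma cell markers were higher. All 6 endothelial markers were higher, and their mean relative level was 0.10 to 0.18 in transgenic and -0.24 to -0.03 in wildtype animals. All 6 meningeal markers were higher, at 0.17 to 0.46 in transgenic and -0.53 to 0.19 in wildtype animals. Of the 6 mural markers 5 were higher, at 0.15 to 0.28 in transgenic and -0.46 to 0.20 in wildtype animals. All 6 choroid and ependymal markers were higher, at -0.14 to 0.61 in transgenic and -0.94 to 0.49 in wildtype animals, and in none of the 6 were the groups apart. Astrocyte markers stood at -0.01 to 0.13 in transgenic and -0.13 to 0.01 in wildtype animals, and oligodendrocyte markers at -0.04 to 0.21 in transgenic and -0.16 to 0.02 in wildtype animals. In bulk tissue, fewer cells of a type and less RNA per cell cannot be told apart, and the part of these cells in the differences of the 9 genes was not tested.

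The highest wildtype values of the meningeal, mural and choroid lists belonged to wildtype replicate 1, the only wildtype animal without signal from the Y-linked genes Eif2s3y and Kdm5d. Their mean log2 level was 4.67, 4.78 and 4.70 in the transgenic animals, against 4.63, 8.41 and 8.45 in wildtype replicates 1, 2 and 3. Genotype and Y-linked signal thus partly coincided in the comparison of all animals, and their effects cannot be fully told apart. Against wildtype replicate 1 alone, the difference of Xbp1 was 0.28, that of Ern1 0.17 and that of Eif2ak3 0.12, each close to its value over all animals. That of Hspa5 was 0.10, that of Atf4 0.14, and those of Hsp90b1 and Ddit3 were both -0.11. The direction was the same in all 9 genes, 7 above 0 and 2 below, although this rests on 1 wildtype animal and has no test. When the Y-linked signal entered the fit as a covariate, Xbp1 differed by 0.28 ± 0.12 (limma unadjusted p = 0.0634), about as much as without it but with a larger error. No gene of the 9 then had an unadjusted p under 0.05. Because the signal sets wildtype replicates 2 and 3 apart, this fit is nearly the same contrast as that against wildtype replicate 1 alone. The 2 are therefore not separate checks.

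**Figure D4:**
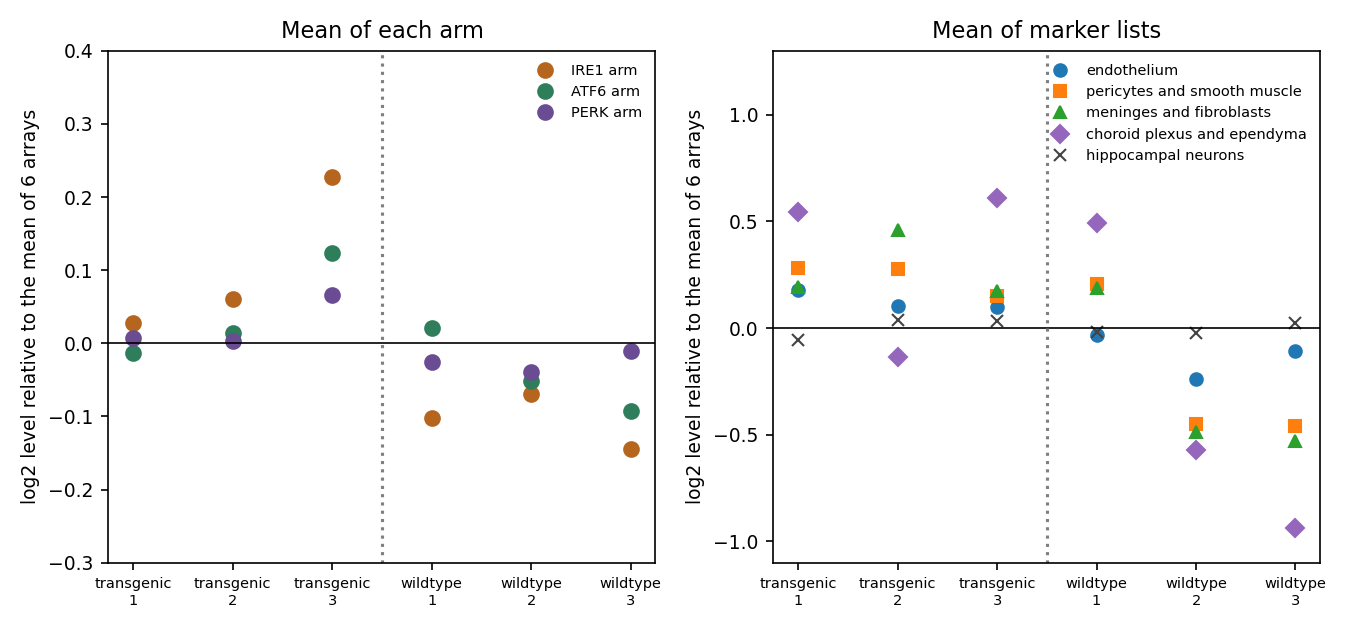
Mean log2 level relative to the mean of the 6 arrays, by animal, for the measured genes of each arm (left) and for lists of cell type markers (right), on different vertical scales. The IRE1 arm runs from 0.03 to 0.23 in transgenic and from -0.14 to -0.07 in wildtype animals, whereas for meningeal, mural and choroid markers wildtype replicate 1 lies among the transgenic animals.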

How the data were processed

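Values were log2 expression per probe in 6 arrays, made by the authors with RMA on build mm8, per the submitters' processing notes. RMA corrects background, normalizes between arrays and summarises probes, and it compresses differences of dim probes. The sources used here state neither its version nor a filter. Array medians were 7.44 to 7.47. The labels name separate animals, and the number of arrays limits the precision.

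Of 23332 probes, the annotation GEO holds for the platform, possibly outdated, gave 1 symbol for 14996, several for 1019 and none for 7317. RefSeq's GRCm38.p6 table held 14941 of the 14996 by gene identifier and changed 0 symbols. Where a gene had several probes (135 genes), the one with the highest mean was used. Transgenic was set against wildtype in R 4.3.3 by limma 3.58.1 (lmFit and eBayes without covariates, two-sided), with Benjamini-Hochberg adjustment over 14996 probes and a false discovery rate of 10%, that of the series. Within-array differences between genes used an exact permutation test. On simulated data for this comparison (14996 probes), with independent normal noise, 80.7% of 1.5-fold and 95.8% of 2-fold changes were recovered. The simulation held no variation shared between probes and no change under 1.5-fold. It therefore does not give the power for differences as small as those of the 9 genes. In the data themselves Acta2, at 2.56 times wildtype, had a limma adjusted p of 0.432.

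The members and lists were chosen with earlier results of these data known. Named genes were the 9 members, the 3 genes with the smallest p per pathway list, 2 Y-linked genes and the 5 profiles nearest to the widest-ranging member, and a few others were named after their values were seen. Of each cell type list the gene with the smallest p was named. The planned results for Atf6, and for its pairs, could not be computed.
Alternatives were a replicate block, quantile and median scaling, omission of dim probes, other variance settings, array weights, all probes, averaged probes, the Y-linked signal as covariate, omission of wildtype replicates 2 and 3, and omission of each array.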

Additional observations from a re-analysis of the deposited data

How the results depend on the processing

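Under 17 alternatives the differences of the 9 genes were recomputed 153 times, and 151 kept their sign. Of the 144 with a test, none passed a false discovery rate of 10% (lowest limma adjusted p 0.25), and the other 9, without wildtype replicates 2 and 3, are values only. The exceptions were both Hsp90b1, between -0.10 and 0.03 when 1 array was left out, with 0.025 without transgenic replicate 1 and 0.013 without wildtype replicate 1. The replicate block, omission of dim probes, trend and robust estimation, no variance moderation, all probes and averaged probes left each difference unchanged by construction. In these settings no sign could turn, so their kept signs carry no information. Leaving out 1 array gave 0.23 to 0.35 for Xbp1, 0.06 to 0.29 for Dnajb9 and 0.04 to 0.14 for Herpud1. Ern1 minus Eif2ak3 ran from -0.0086, without transgenic replicate 1, to 0.090, without wildtype replicate 3, and Xbp1 minus Atf4 from 0.18 to 0.29. The count of 7 probes past the rate was 12 with trend and robust estimation or array weights, 0 without variance moderation, with all probes of the table (lowest limma adjusted p 0.111) or with the Y-linked covariate, and 0 to 103 when 1 array was left out, the highest without wildtype replicate 1. Wildtype replicate 1 was the only wildtype array without Y-linked signal, so without it genotype and that signal cannot be told apart. The cause of the change in count was not tested. The count at 5% was 6.

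With the replicate number as a block the count was 0, and no call among the 9 genes changed (Xbp1 at 0.31 ± 0.09, limma adjusted p = 0.373). Deviations of same-numbered animals correlated across probes at 0.23, 0.15 and 0.02, so the numbers were not taken to pair the animals, and wildtype replicate 3 was closest to transgenic replicate 2. The block for the 2 pairs of genes, and their values without wildtype replicates 2 and 3 (0.05 and 0.14), were added after seeing the data.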
